A study of Mus musculus with 36 samples.

Results

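Glucocorticoid was compared with its carrier at 1 time of a day-long series in the mouse bladder, the 16 h label, over all 49585 features of the deposited gene tables. The comparison used 6 of the study's 36 libraries, 3 from each treatment, chosen by their treatment and time names alone. Each library held total RNA of whole bladder from C57BL/6 mice without adrenal glands, an operation (bilateral adrenalectomy) that the vehicle group shared, so that neither group made its own adrenal corticosterone. The group called CORT was given corticosterone, the main glucocorticoid of mice, in what the labels call the inactive timing, and the other group was given vehicle only. The labels give no dose, age or sex, do not say what 0 h was, and do not say whether replicates were separate animals or pools. The p-values measure the spread between libraries of the same group, taken over all 36 libraries, and this spread may be technical. The replicate 3 samples of all groups carry no time tag, and their time was read from their titles.

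Before any result, the naming of some libraries has to be stated. The deposited tables of selected genes for 12 libraries carry the names of the full tables in every column. Those for 18 libraries hold 8 replicate 2 columns whose values belong to a library of another name in the full tables. Of these, 2 bear on the comparison: the library named vehicle 16 h replicate 2 in the full tables stands there as CORT 4 h replicate 2, and the one named CORT 16 h replicate 2 stands there as vehicle 4 h replicate 2. Under that other naming, the 16 h places are held by the libraries that the full tables name CORT 4 h and vehicle 4 h replicate 2. The names of the full tables were used throughout, and the main results that rest on these libraries are also given without all 8 and under the other names.

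The labels' extraction text describes blood, whereas the source they name is the whole bladder. Genes that define the bladder wall were abundant in all 6 libraries. Upk1a, a uroplakin of the urothelial surface, lay between 13058 and 19007. Of the 10 genes of the neutrophil list, 4 passed the filter on low values, and these summed to 18.1 to 28.3 per library. The list members S100a9, Ngp, Camp, Ltf and Elane were at or near 0. Red cell RNA was present: the 8 tested erythroid and globin genes summed to 1803 to 2210.4 in CORT and 1200.4 to 2712 in vehicle, most of it from Hbb-bs and Hba-a2. The mean depth per library was 11016413 counts over the 18 CORT libraries and 10682675 over the 18 vehicle libraries. In the 6 libraries at 16 h, 68 to 119 reads lay behind a normalized value of 100, and 6 to 11 behind a value of 10. Libraries of the same treatment correlated across genes at a mean r of 0.982 (6 pairs, 0.974 to 0.985), and libraries of opposite treatment at 0.982 (9 pairs, 0.975 to 0.987), on the log2 scale, so the whole profile did not set the treatments apart.

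Cells that enter S phase first load the MCM helicase onto DNA at replication origins, then fire those origins with DNA polymerases, and destroy the loading factor Cdt1 so that no origin is used again. The genes of this machinery are classic targets of E2F transcription factors, which bind a short GC-rich element near their start sites. Corticosterone acts through the glucocorticoid receptor, which directly induces genes such as Fkbp5, Tsc22d3 and Per1, and is known as a signal that sets peripheral clocks. The adult bladder lining renews slowly, and few of its cells divide at any time.

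Of 17867 features that passed the filter on low values, 2 differed between CORT and vehicle at an adjusted p of 0.05 or less (0.0112%), by limma on log2(value + 1) with Benjamini-Hochberg adjustment. Both, Dtl and Pole, were genes of DNA replication and both were lower in CORT. No feature was called higher by limma, and 340 (1.9%) were higher at an unadjusted p under 0.05 against 383 (2.14%) lower. In total 723 features (4.05%) had an unadjusted p under 0.05. The 3 CORT values lay wholly above the 3 vehicle values for 541 features (3.03%) and wholly below them for 578 (3.24%). The median difference over all features tested was -0.003 on the log2 scale, and 50.8% of the features were lower in CORT.

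**Figure D1:**
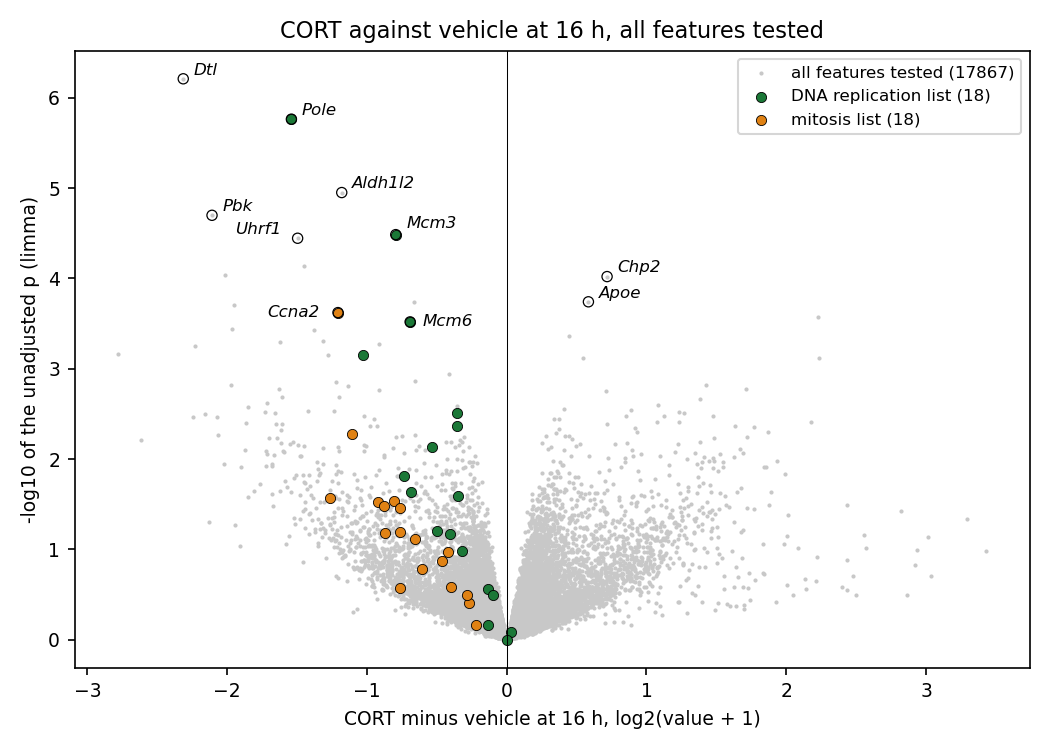
Each point is 1 of the 17867 features tested; the horizontal axis is the CORT minus vehicle difference at 16 h in log2(value + 1), and the vertical axis is -log10 of the unadjusted limma p. Dtl, at -2.31, and Pole, at -1.54, are the 2 called features, and both lie on the side lower in CORT.

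Values below are in the order of replicates 1 to 3, and where 2 sets are joined by "against" the CORT set comes first. Dtl (chr1:191537356-191575544, minus strand, GRCm38 in GENCODE) encodes the substrate receptor of the CRL4 ubiquitin ligase that marks Cdt1 for destruction in S phase. Its normalized values were 6.39, 4.56 and 5.5 in CORT and 26.7, 58.3 and 19 in vehicle. The highest CORT library lay far under the lowest vehicle library, and vehicle replicate 2 was well above its fellows. The difference was -2.31 ± 0.35 (log2, SE; adjusted p = 0.0110, limma), which puts the CORT level at 0.201 of the vehicle level on the log2(value + 1) scale. These levels rest on 7, 4 and 5 reads in CORT and 17, 70 and 16 in vehicle, and the smallest p that an exact permutation of 3 against 3 libraries allows is 0.1.

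Pole (chr5:110286306-110337474, plus strand) encodes the catalytic subunit of DNA polymerase epsilon, which copies the leading strand. It stood at 21.9, 20.8 and 17.6 in CORT and 43.6, 69.7 and 71.6 in vehicle. The groups did not overlap in normalized value, and vehicle replicate 1 was the lowest of its group. These levels rest on 22, 17 and 15 reads in CORT and 28, 82 and 60 in vehicle. Vehicle replicate 1 was the shallowest of the 6 libraries, with 68 reads behind a value of 100, so its margin over CORT was small in reads. The difference was -1.54 ± 0.25 (log2, SE; adjusted p = 0.0154, limma), with CORT at 0.344 of vehicle. In RNA of a whole tissue, fewer cells of a type and less RNA per cell cannot be told apart, here and in what follows.

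Both calls rest on the replicate 2 libraries in part, and on a spread estimated from all 36 libraries. With the 6 libraries at 16 h fitted alone, the limma adjusted p was 0.438 for Dtl and 0.266 for Pole. Without the 8 libraries of conflicting name the Dtl difference was -1.76 and the Pole difference -1.46, both with a limma adjusted p of 1.00, and no feature was called (792 at an unadjusted p under 0.05). Under the other names they were -1.48 and -1.05, again with no call. Leaving out vehicle 16 h replicate 2 alone gave -1.87 and -1.44 (both adjusted p = 0.176, limma), and leaving out CORT 16 h replicate 2 alone gave -2.21 and -1.56 (both adjusted p = 0.0653, limma). Without CORT replicate 3 or without vehicle replicate 3 Pole had a limma adjusted p of 0.0952 or 0.0831, and Dtl was still called. Among replicates 1 and 2 only, the limma adjusted p was 0.129 for Dtl and 0.266 for Pole. Replicate 3 alone, with no test, was also lower in CORT for both genes.

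Pole has no entry in the promoter source used, so its promoter is not shown. The promoters of Dtl and of the helicase genes Mcm3, Mcm5 and Mcm6 are printed as examples of S phase genes with CORT values under all vehicle values. Mcm4, Gins1, Rrm1, Cdc6, Rrm2 and Pold1 of the replication list also had such values and are not printed, nor are genes outside the list such as Uhrf1. The printed promoters were picked after the values of their genes were seen. Each is RefSeq sequence of GRCm38.p6, from 250 bases before to 50 bases after the start site, 5′ to 3′ on the gene's strand: chr1:191575495-191575794 (minus) for Dtl, chr1:20820263-20820562 (minus) for Mcm3, chr8:75109259-75109558 (plus) for Mcm5 and chr1:128359656-128359955 (minus) for Mcm6. Capitals mark 3 E2F-type motifs on either strand, namely TTGGCGC, then its close variant TTCGCGC and, as the last form searched, TTCCCGC; a run longer than 7 capitals holds overlapping matches.
Dtl: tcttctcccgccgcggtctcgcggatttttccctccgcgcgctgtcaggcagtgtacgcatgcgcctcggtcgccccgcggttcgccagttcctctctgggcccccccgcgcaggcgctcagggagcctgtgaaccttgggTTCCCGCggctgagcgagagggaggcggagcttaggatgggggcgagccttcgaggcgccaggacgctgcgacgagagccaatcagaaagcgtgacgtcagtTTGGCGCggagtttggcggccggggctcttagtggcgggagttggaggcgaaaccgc
Mcm3: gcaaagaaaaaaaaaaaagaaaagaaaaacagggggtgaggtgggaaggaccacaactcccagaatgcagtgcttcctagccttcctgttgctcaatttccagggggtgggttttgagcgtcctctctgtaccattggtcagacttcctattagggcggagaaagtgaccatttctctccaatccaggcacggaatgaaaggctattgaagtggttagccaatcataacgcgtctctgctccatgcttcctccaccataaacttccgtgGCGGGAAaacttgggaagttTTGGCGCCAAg
Mcm5: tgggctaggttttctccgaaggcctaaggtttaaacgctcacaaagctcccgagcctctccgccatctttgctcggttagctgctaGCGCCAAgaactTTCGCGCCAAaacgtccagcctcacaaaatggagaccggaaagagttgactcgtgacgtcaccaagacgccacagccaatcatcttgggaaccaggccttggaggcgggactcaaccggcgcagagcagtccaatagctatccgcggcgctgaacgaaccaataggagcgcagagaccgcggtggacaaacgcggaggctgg
Mcm6: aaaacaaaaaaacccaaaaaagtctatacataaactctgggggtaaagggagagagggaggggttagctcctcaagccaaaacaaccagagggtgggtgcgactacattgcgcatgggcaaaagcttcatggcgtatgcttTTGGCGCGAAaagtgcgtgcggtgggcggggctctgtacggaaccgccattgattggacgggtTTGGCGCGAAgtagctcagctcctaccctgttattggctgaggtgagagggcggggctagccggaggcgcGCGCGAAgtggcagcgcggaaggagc

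Dtl held 2 matches, Mcm3 and Mcm5 held 3 each, and Mcm6 held 5. Over all 32851 promoters of the RefSeq table, each 300 bases long, 8.07% held at least 1 match. Of the tested genes with an entry, 14.7% of 13015 held one, against 10 of the 14 matched genes of the replication list (71.4%) and 3 of the 16 matched genes of the mitosis list (18.8%). A match describes the letters only and shows no binding in these bladders. The replication list was chosen by function, and such genes are classic E2F targets, so its share does not bear on the treatment difference.

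The replication list had 18 genes, all tested, and 1 of them, Pole, was called (Dtl is not on it). At an unadjusted p under 0.05, 10 of the 18 (55.6%) were lower in CORT, beside 2.14% of all features, and 10 of 18 had groups that did not overlap with CORT below, beside 3.24%. In sign 16 of 18 were lower, and the list's median difference was -0.38 beside -0.003 over all features. Its members' values summed to 2413, 2602 and 2515 in the 3 CORT libraries and to 3280, 3864 and 2876 in the 3 vehicle libraries. Vehicle replicate 2 was the highest vehicle library for 13 of the 18 genes and vehicle replicate 3 the lowest for 12. The list's median was -0.29 without the 8 libraries of conflicting name and -0.27 under the other names; the number lower at an unadjusted p under 0.05 was then 6 and 3.

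Within the MCM helicase, the 6 subunits differed in how far the treatments lay apart. Mcm3 had the smallest p of the 6, at 115, 115 and 125 in CORT and 201, 262 and 166 in vehicle, with a difference of -0.79 ± 0.16 (log2, SE; adjusted p = 0.107, limma). Mcm6 stood at 185, 215.3 and 228 in CORT and 338, 401 and 284 in vehicle, also without overlap. Mcm5 stood at 57.8, 77.8 and 72.8 in CORT and 151, 217 and 86.3 in vehicle, where replicate 3 lay close to the CORT libraries. These 3 genes did not pass the test. Mcm4 was at 270.4, 308 and 296 in CORT and 333, 439 and 353 in vehicle, without overlap. The Mcm2 values were 157, 227 and 200.1 in CORT and 266, 364 and 224 in vehicle, and those of Mcm7 were 234, 261 and 271 against 266, 331 and 247. For Mcm2 and Mcm7 the groups overlapped.

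Other parts of the machinery were further from the threshold. Cdt1, the loading factor that Dtl removes, stood at 24.3, 32.7 and 21.4 in CORT and 47.1, 53.2 and 29.4 in vehicle, with overlap. Gins1, a subunit of the complex that activates the helicase, stood at 17.4, 12.8 and 12.4 against 25.3, 26 and 21.1, without overlap. Rrm1, the large subunit of the reductase that makes deoxynucleotides, stood at 476, 457 and 467 against 682, 627 and 502. Cdc6, Rrm2 and Pold1 likewise did not overlap. The sliding clamp gene Pcna was at 428, 436 and 381 in CORT and 446, 481 and 408 in vehicle, and Tyms, which makes thymidylate, at 107, 146 and 111 against 108, 118 and 128. Both overlapped, as did Gins2, Prim1 and Fen1. In all, 10 members had groups that stood apart and 8 had groups that ran through each other.

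**Figure D2:**
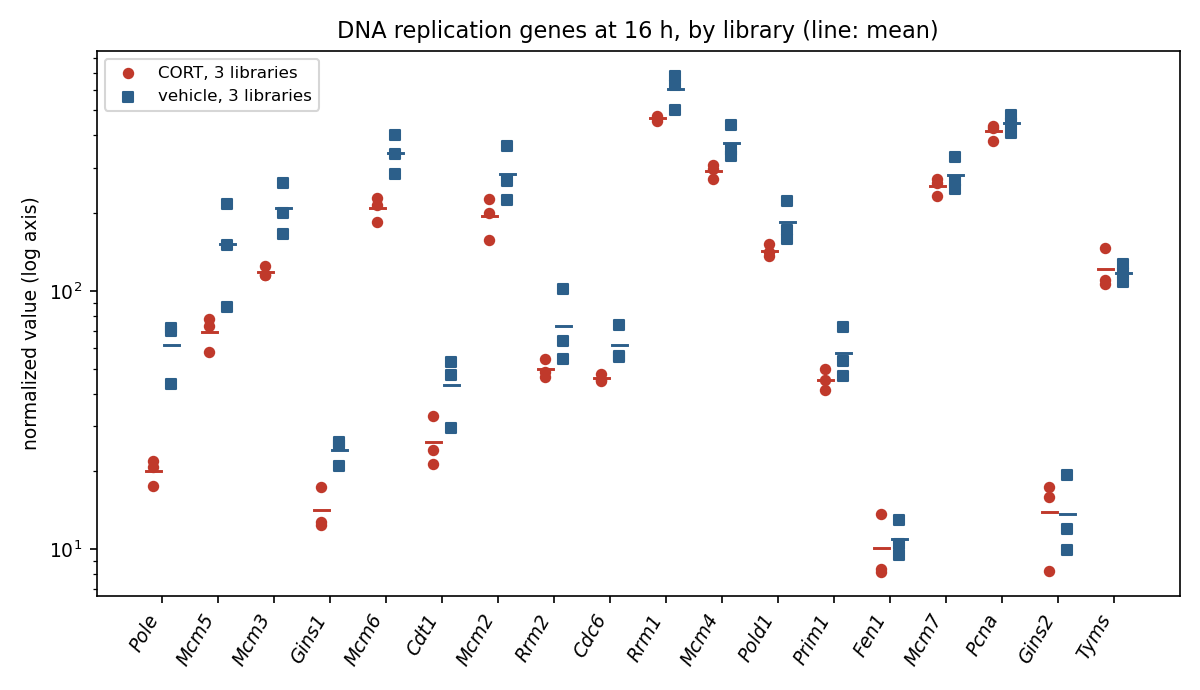
Points are the normalized values of the 18 replication genes in the 6 libraries at 16 h, on a log axis, with CORT and vehicle in separate colours. Pole, Mcm3 and Mcm6 have CORT points clear of the vehicle points, whereas for Pcna and Tyms the points of the treatments mix.

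The other times put the 16 h values in context. Mean Pole values in vehicle ran from 41.4 to 65 over the 5 other times and were 61.6 ± 15.7 at 16 h (SD, n = 3), while in CORT they ran from 40.7 to 45.7 and were 20.1 ± 2.22 at 16 h. The 16 h CORT level was thus under the CORT level of every other time, while the 16 h vehicle level fell inside the range of the other vehicle times. Mcm3 had another form: its CORT means at the 5 other times ran from 117 to 149.9 with 118 ± 5.82 at 16 h, and its vehicle means from 121 to 196 with 209.7 ± 48.5 at 16 h, the highest of the 6 times. Dtl means ran from 7.51 to 14.8 in CORT with 5.48 ± 0.917 at 16 h, the lowest, and from 14.4 to 29.4 in vehicle with 34.7 ± 20.8 at 16 h, the highest.

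Dtl was lower in CORT at each of the 6 times, by differences of -0.69, -1.40, -0.86, -2.31, -0.58 and -0.92 from 4 h to 24 h. For Pole these were -0.13, -0.61, -0.05, -1.54, -0.55 and -0.06. A test of the 16 h difference against the mean of the other 5 gave -1.43 ± 0.39 for Dtl (adjusted p = 0.952, limma) and -1.26 ± 0.27 for Pole (adjusted p = 0.359, limma), neither of which passed. Over all features 1 passed this test (0.0056%) and 746 (4.18%) had an unadjusted p under 0.05. In the replication list 8 of 18 had such a p, all with a lower 16 h difference (2.16% of all features did), and the list's median difference by time was 0.03, -0.06, -0.02, -0.38, -0.20 and -0.04. This count and these medians are given for the names of the full tables only. The Pole value in the test against the other times was -1.23 without the 8 libraries of conflicting name and -1.03 under the other names.

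**Figure D3:**
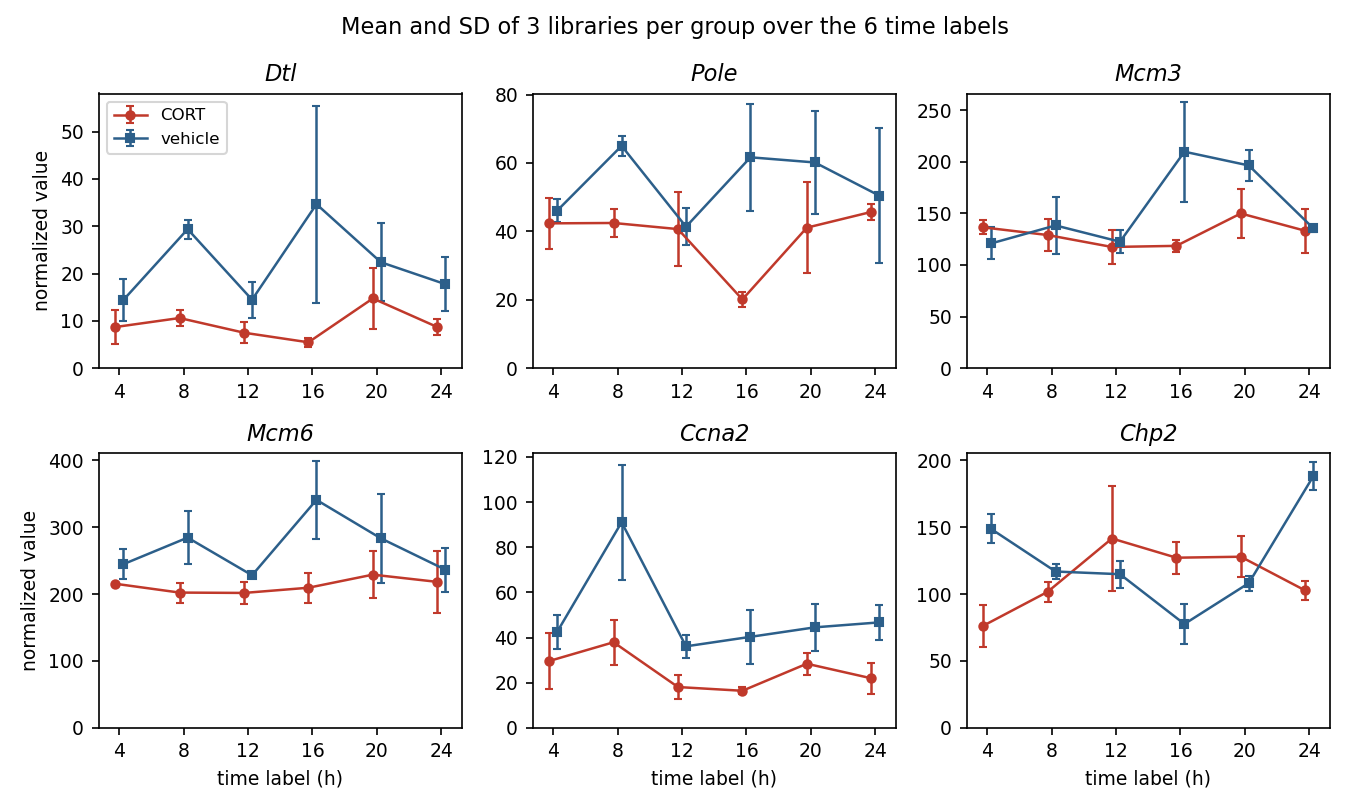
Mean normalized value and SD of 3 libraries at each of the 6 time labels, CORT and vehicle drawn as separate lines, for genes described in the text. Dtl and Pole have their widest gap at 16 h, and Chp2 changes order, with CORT below vehicle at 4 h and 24 h and above it at 16 h.

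In the mitosis list the order of the libraries was not that of the replication list. None of the 18 was called, 7 were lower at an unadjusted p under 0.05 (2.14% of all features were), and all 18 were lower in sign with a median of -0.76. Ccna2, Prc1 and Bub1, 3 of 18 (16.7%), had groups that did not overlap, beside 3.24% of all features. Summed values were 645, 411 and 471 in CORT and 597, 997 and 1065 in vehicle, so that CORT replicate 1 lay above vehicle replicate 1. Mki67, the usual marker of dividing cells, showed this at 171, 94.9 and 118 in CORT and 146, 281 and 319 in vehicle. Top2a, the topoisomerase that untangles chromosomes, was at 117, 90.5 and 68.2 against 102, 187 and 205. The list's median was already -0.83, -1.34 and -0.97 at 4, 8 and 12 h, and no member had an unadjusted p under 0.05 in the test of 16 h against the other times. Without the 8 libraries of conflicting name the 16 h median was -0.40, under the other names -0.85, and without replicate 1 of all groups -1.24.

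**Figure D4:**
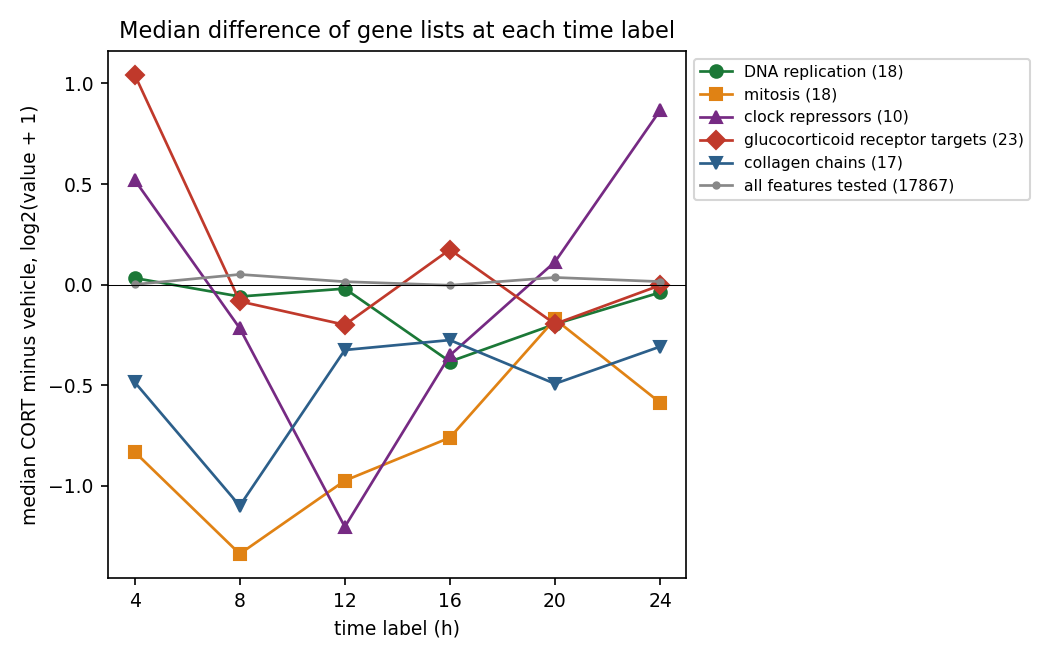
Median CORT minus vehicle difference in log2(value + 1) at each of the 6 time labels, 1 line each for DNA replication, mitosis, clock repressors, glucocorticoid receptor targets and collagen chains, and a grey line for all features tested. The replication list is near 0 at 4, 8 and 12 h and at -0.38 at 16 h, whereas the mitosis list is lower at 4, 8 and 12 h than at 16 h.

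A rule of rank, given with the processing, named 12 lower features, of which 10 did not pass the test; values are given for those reported here. Mcm3 and Mcm6, given above, are among them. Ccna2, the cyclin of S and G2 phase, stood at 16.3, 14.9 and 18 in CORT and 28.4, 39.9 and 52.6 in vehicle. Uhrf1, which carries DNA methylation over to new strands, stood at 32.8, 34.8 and 32.9 against 75.3, 151 and 78.2, with vehicle replicate 2 well above the other two vehicle libraries. Pbk, a mitotic kinase, was at 4.97, 1.36 and 2.72 against 10.4, 22.8 and 14.5, and with CORT replicate 1 left out it passed the test. Fignl1, an ATPase of recombination, was at 8.42, 9.33 and 12.4 against 35.9, 34.3 and 16.5. In none of these did the normalized value of a CORT library reach that of a vehicle library. Pbk rests on 5, 1 and 2 reads in CORT and 6, 26 and 12 in vehicle. The reads were 17, 13 and 16 against 18, 47 and 44 for Ccna2, and 9, 8 and 11 against 23, 40 and 14 for Fignl1.

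Among the rest of the 10, Aldh1l2, a mitochondrial enzyme of folate metabolism, had the tightest groups, at 24.2, 20 and 23.5 in CORT and 55.7, 48.8 and 52.4 in vehicle, a difference of -1.18 ± 0.22 (log2, SE; adjusted p = 0.0668, limma). With features of a mean value under 10 left out, its adjusted p was 0.0401 (limma). Cd180, a Toll-like receptor relative of B cells and macrophages, stood at 34.1, 35.1 and 44.8 against 55.9, 63.7 and 61.4. Trp53cor1, the noncoding RNA lincRNA-p21 induced by p53, stood at 3.36, 2.92 and 6.39 against 10.8, 11.1 and 17.3, on 3, 2 and 5 reads against 6, 12 and 14.

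On the higher side nothing passed, and the 12 features named by rank of p are values only. Chp2 (chr7:122219496-122222824, plus strand), an EF-hand partner of sodium-proton exchangers, came first, at 129.9, 138 and 114 in CORT and 75.9, 63.7 and 93.2 in vehicle, a difference of 0.72 ± 0.16 (log2, SE; adjusted p = 0.19, limma). It was the only feature whose 16 h difference passed the test against the other times, at 1.03 ± 0.17 (adjusted p = 0.0439, limma). Its differences from 4 h to 24 h were -0.97, -0.20, 0.26, 0.72, 0.23 and -0.87. Vehicle means ran from 108 to 188 at the 5 other times and were 77.6 ± 14.8 at 16 h, while CORT means ran from 76.3 to 142 and were 127 ± 12. The test against the other times gave 0.84 without the 8 libraries of conflicting name (adjusted p = 0.811, limma) and 0.36 under the other names (adjusted p = 1.00, limma), where the 16 h difference itself was near 0.

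Apoe, the lipoprotein that carries cholesterol between cells, was at 4998, 2986 and 3726 in CORT and 2239.8, 2835 and 2596 in vehicle, with CORT replicate 1 the highest. Net1, an exchange factor for RhoA, was at 4589, 4177 and 3753 against 2758, 2905 and 3555. The groups did not overlap in either gene, but the nearest libraries were close. Il1rl1, the receptor of interleukin 33 on mast cells and type 2 lymphocytes, was at 95.8, 74 and 64.3 against 46.4, 44.5 and 49.2. Tmprss6, a membrane serine protease, was at 20.9, 14.5 and 9.58 against 2.44, 7.42 and 5.42, on 21, 12 and 8 reads against 1, 8 and 4. Slx1b, a subunit of a DNA structure endonuclease, had nearly equal CORT values, 133, 135 and 134, and vehicle values of 72.8, 103 and 101. Apoo, a protein of mitochondrial cristae, was at 84.8, 80.6 and 94.8 against 26.5, 49.9 and 74.6, with the vehicle libraries spread widely.

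The remaining higher features were Bbs2, Cyp4v3, Dnajc24, Fam89a and Zfp941. Bbs2, of the complex that sorts cargo to cilia, stood at 204, 179 and 183 in CORT and 128, 147 and 150.2 in vehicle. Cyp4v3, a fatty acid hydroxylase, stood at 237, 228 and 225 against 160.2, 172 and 217. Dnajc24, a cochaperone needed for diphthamide on elongation factor 2, stood at 103, 96.5 and 86.2 against 70.6, 78.9 and 69.9. Fam89a was at 12.6, 16.4 and 17.2 against 8.19, 5.31 and 6.94, and Zfp941, a zinc finger gene, at 13, 17.4 and 14.4 against 6.03, 8.39 and 9.17. All of these were separated by library at levels where groups still lay within 2-fold of each other at their nearest point.

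Of the other features with the smallest p against the other times, none passed. Hat1, which acetylates new histone H4 before it is built into chromatin, had all CORT libraries under all vehicle libraries, at 233, 234 and 217 against 323, 272 and 283. Mpeg1, the perforin of macrophages, was at 865, 626 and 714 against 441, 669 and 549.9, where vehicle replicate 2 lay above CORT replicate 2. Cntn3, a neuronal adhesion molecule, was at 11.2, 9.25 and 16.9 against 4.61, 1.64 and 8.22. Zfp783 was at 39.7, 29.2 and 38.2 against 46.9, 47.2 and 58.5, and Ttc30a1, which has near-identical copies that the counting may share, at 43.2, 36.9 and 53.2 against 64.1, 48.6 and 63.3.

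The series is about the bladder's clock, and the clock genes were read at 16 h whether called or not. None of the 19 was called. All 10 repressors and their relatives were lower in CORT in sign, with a list median of -0.35. Of these, 3 (Bhlhe40, Cry2 and Per2) were lower at an unadjusted limma p under 0.05, beside 2.14% of all features. From 4 h to 24 h the list's medians were 0.52, -0.22, -1.20, -0.35, 0.11 and 0.87, by the names of the full tables. The list was thus further below vehicle at 12 h than at 16 h, and above it at 4, 20 and 24 h. Per2, a core repressor, was at 694, 377 and 636 in CORT and 902, 844 and 793 in vehicle, a difference of -0.62 ± 0.26 (log2, SE; adjusted p = 0.999, limma). Cry1, its partner, was at 311, 257 and 286 against 431, 374 and 311, and Ciart, a repressor of the CLOCK complex, at 10.4, 7.97 and 11.1 against 32.9, 26.4 and 19.8. In these 3 of 10 repressors the groups were apart (3.24% of all features were, with CORT below), for Cry1 by less than 1 unit, and CORT replicate 2 was the lowest library for each. Cry2 stood at 481, 424 and 404 against 598, 575 and 473 and Bhlhe40 at 347, 347 and 461 against 993, 777 and 362, where vehicle replicate 3 lay with the CORT libraries.

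Per1, which is a direct glucocorticoid target as well as a clock gene, overlapped at 734, 373 and 549 in CORT and 583, 549 and 535 in vehicle. Per3 ran at 273, 139.7 and 194 against 205, 252 and 256. Nr1d1, the REV-ERB receptor that represses Arntl, was at 309.8, 463 and 606 against 539, 479.9 and 356, and Nr1d2 at 1436, 1104 and 1342 against 1591, 1426 and 1370.2. Bhlhe41 was at 284, 246 and 378 against 454, 399.8 and 370.5. The treatments mixed in all of these.

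The activators were not lower as a group. Arntl (BMAL1) was at 149, 271 and 173 in CORT and 136, 130.1 and 168 in vehicle, with CORT replicate 2 far above the other 5. Clock was at 2186, 2221 and 1978 against 2096, 1807 and 1998, and Npas2 at 173, 244 and 225 against 142, 174 and 231. The list of 5 activators had a median of 0.11. Rora was at 1616, 1036 and 1392 against 1609.9, 1442 and 1372. Among the clock's output factors, Dbp was at 358, 183 and 339 against 484, 512 and 515, without overlap, Tef at 1788, 1155 and 1553 against 1868, 1968 and 1689, Hlf at 759, 344 and 482 against 580.4, 569 and 668, and their opponent Nfil3 at 126, 275 and 158 against 176, 141 and 147. CORT replicate 2 had the lowest Dbp, Tef, Hlf and Per1 and the highest Arntl and Nfil3 of the 6 libraries. The repressors' median was -0.28 without the 8 libraries of conflicting name and 0.10 under the other names, so the sign of this list rests on the naming.

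Among the glucocorticoid receptor targets, 1 library of each treatment often stood above its fellows. Of 23, none was called, 17 were higher in CORT in sign, and the median was 0.17. That median was 0.19 without the 8 libraries of conflicting name and 0.60 under the other names. It was 0.05 without CORT replicate 1, -0.02 without vehicle replicate 1 and 0.07 without vehicle replicate 2. Without replicate 1 of all groups it was -0.06, so its sign rests on single libraries. From 4 h to 24 h the medians of the targets were 1.04, -0.08, -0.20, 0.17, -0.20 and -0.0036, by the names of the full tables. Tat, the tyrosine aminotransferase long used as a glucocorticoid readout, was the only one higher at an unadjusted p under 0.05 (1.9% of all features were), at 46.4, 16 and 20.9 in CORT and 4.03, 3.89 and 10.4 in vehicle (adjusted p = 0.999, limma). The groups did not overlap for Tat. Lcn2, a siderophore-binding protein of innate defence, was the only other target with separate groups, with CORT under vehicle, at 19.5, 19.4 and 16.2 against 27.3, 32.8 and 22.6. Over all features 3.03% had separate groups with CORT above and 3.24% with CORT below. CORT replicate 1 was the highest CORT library for 14 of 23 and vehicle replicate 3 the highest vehicle library for 15 of 23.

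Zbtb16 showed this pattern at its clearest, at 1351, 335 and 491 in CORT and 277, 310.4 and 1306 in vehicle. Fkbp5, which limits receptor sensitivity, was at 983, 552 and 673 against 361, 545 and 973. Tsc22d3 (GILZ) was at 2336, 894 and 1149.9 against 1088, 1155 and 1573, and Sgk1, a kinase that controls sodium channels, at 724, 617 and 514 against 365, 542 and 807. In each of these 4 genes vehicle replicate 3 was above CORT replicates 2 and 3. Hif3a ran at 124, 38.8 and 39 against 8.5, 41.7 and 100.03, Sult1a1 at 179, 107 and 109 against 61, 77.9 and 161, and Klf9 at 1715, 899.8 and 1346 against 1191, 1169 and 1448. Cebpd was highest in vehicle replicates 1 and 2, at 271, 304 and 359.7 against 631, 820.1 and 266. Dusp1 and Mt1 had groups that overlapped. Dusp1 was at 500.1, 951 and 872 in CORT and 372, 796 and 616 in vehicle, and Mt1 at 365, 321 and 311 against 198, 275 and 339.

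The remaining targets stood as follows. Pck1 was at 50.1, 60.3 and 3.86 in CORT and 0, 2.14 and 10.1 in vehicle, and Angptl4 at 36, 60.7 and 42.6 against 35.6, 40.8 and 58.9. Pdk4 was at 1098, 933 and 841 against 845, 819 and 1071, Cdkn1a at 646, 638 and 545 against 537, 598 and 627, and Ddit4 at 302, 369 and 299.9 against 217, 307 and 324. These are genes of glucose and lipid use and of growth arrest. Errfi1 was at 674, 738 and 663 against 553, 679 and 599, Cebpb at 245, 308 and 302 against 348, 357 and 271, and Nfkbia at 423, 376 and 402 against 573, 389.9 and 424. Map3k6 was at 248, 191 and 318 against 308, 304 and 227, and Mt2 at 122, 171 and 186 against 115, 115 and 170.0. In none of them were the groups apart.

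**Figure D5:**
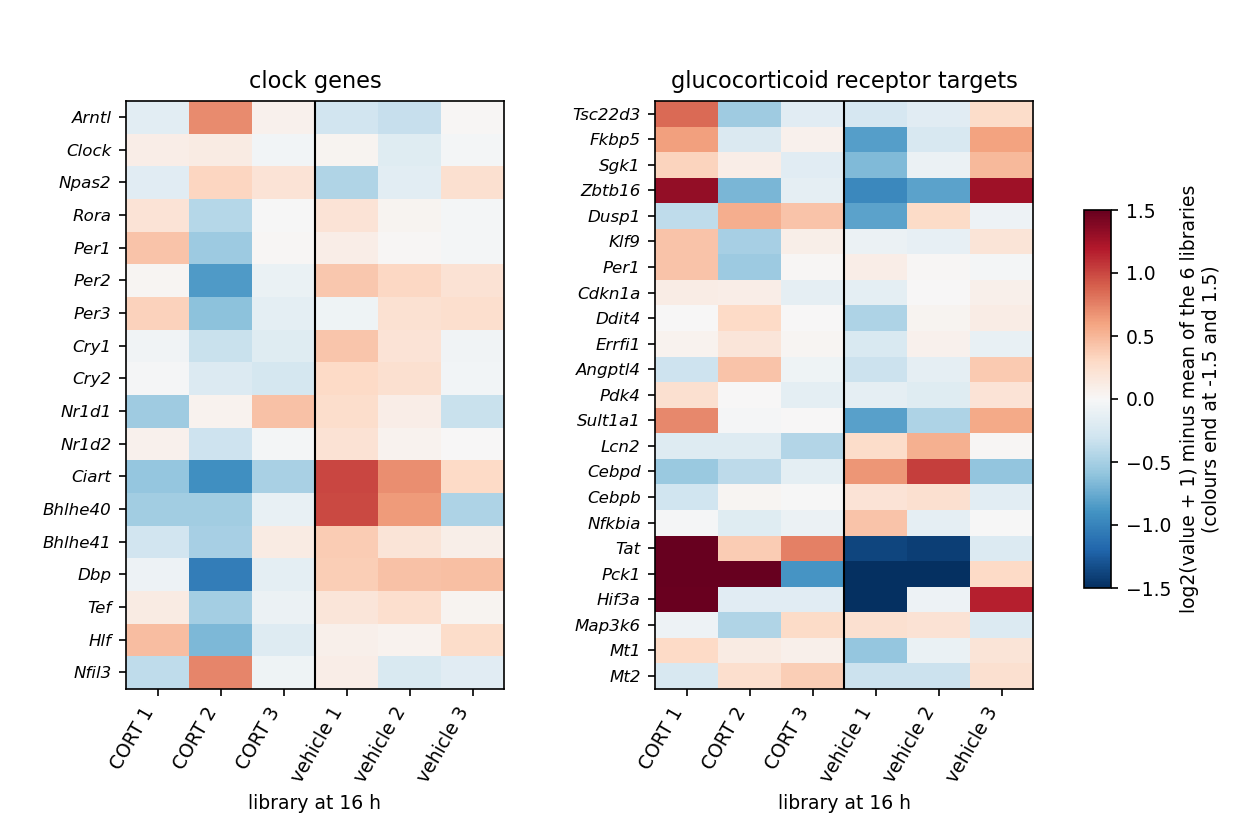
Each cell is 1 gene in 1 library at 16 h, coloured by log2(value + 1) minus the gene's mean over the 6 libraries; colours end at -1.5 and 1.5. Ciart and Per2 are lower in all CORT than in all vehicle libraries, whereas for Zbtb16 and Fkbp5 CORT replicate 1 and vehicle replicate 3 are high together.

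Matrix and cell type lists had few members past any limit. All 17 collagen chains were lower in CORT in sign, with a median of -0.28, 1 of 17 (Col15a1) at an unadjusted p under 0.05, beside 2.14% of all features, and 4 of 17 without overlap, beside 3.24%. Col15a1, a basement membrane collagen, was at 1056, 1040.1 and 1265 in CORT and 1952, 1761 and 1589.6 in vehicle, and Col1a1, the main chain of fibrillar collagen, at 40272, 49720.1 and 52935 against 63166, 74458 and 57882. From 4 h to 24 h the collagen medians were -0.48, -1.10, -0.32, -0.28, -0.49 and -0.31, so the one at 16 h was the nearest to 0. At 16 h it was -0.15 without the 8 libraries of conflicting name, -0.15 without CORT replicate 2, -0.45 without vehicle replicate 3 and -0.48 without replicate 3 of all groups.

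The 17 urothelial genes had a median of 0.12, with 15 higher in sign and none at an unadjusted p under 0.05. Of 8 genes of MHC class II antigen display, 5 (62.5%) had an unadjusted limma p under 0.05 in the test against the other times. In all 5 the 16 h difference was the higher one, and 4.18% of all features had such a p in either direction. That count is given for the names of the full tables only. At 16 h itself 6 of 8 were higher in CORT in sign, and 1 of 8 was higher at an unadjusted limma p under 0.05, beside 1.9% of all features. H2-Aa was at 1513, 1447 and 1369 in CORT and 1177, 1301 and 1068 in vehicle, without overlap, and the list's median was 0.12 at 16 h and -0.79 at 24 h. Ribosomal protein genes were higher in sign in 16 of 16, with a median of 0.21, and for 15 of 16 the highest libraries were replicate 2 of CORT and replicate 3 of vehicle.

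Adipocyte genes followed single libraries. All 11 were higher in CORT in sign, with a median of 1.11, none at an unadjusted p under 0.05. Adiponectin, Adipoq, was at 54.9, 249 and 0.944 in CORT and 1.11, 4.03 and 15.1 in vehicle. CORT replicate 3 was the lowest CORT library for all 11 genes, and replicate 2 the highest for 9. The median was 0.29 without the 8 libraries of conflicting name and 0.05 under the other names. It was 0.73 without CORT replicate 1, 0.36 without CORT replicate 2, 2.81 without CORT replicate 3, 0.51 without vehicle replicate 2, 1.71 without vehicle replicate 3, 0.73 without replicate 1 of all groups and 3.41 without replicate 3 of all groups. The part of fat in the values of other genes was not tested.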

How the data were processed

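RNA of 36 whole bladder samples was sequenced after ribosomal RNA had been depleted and strand-marking libraries prepared, per the labels' protocols. The deposited full tables hold signal values: read counts per feature that were quantile normalized over the 12 libraries of each full table, as the steps of the values show. Genome build mm10 is named, per the submitters' processing notes. Which aligner and which counter the authors ran is not given in the sources used here. Tables of selected genes, also deposited, hold log2(signal + 1) values and served to compare library names. All 156 value columns were matched to samples. In the full tables equal counts had been ranked in row order, so features of few reads differ slightly by their row, and the reads behind low values were read back from that order. For the comparison all 36 libraries were put on 1 quantile scale by their ranks, and log2(value + 1) was fitted as 12 group means (24 residual degrees of freedom) with limma 3.58.1 in R 4.3.3, with Benjamini-Hochberg adjustment over the 17867 of 49585 features above the lowest value in at least 0.5 of the libraries. A feature was called at an adjusted p of 0.05 or less. The 16 h difference was also tested against the mean difference at the 5 other times. The fit was also run on simulated counts that had the same spread for all genes and no gene sets that rise or fall together in a library. No result here rests on that run.

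Up to 12 features per direction with a mean of at least 10 in 1 group and no overlap between groups were named, called ones first and then by p, with names such as Gm numbers left out, and up to 10 by p in the test against the other times. Clock genes and glucocorticoid receptor targets were named whatever their values, and other list members as examples chosen after their values were seen. The members and the 52 gene lists were chosen with earlier results of these data known. A few genes are counted in the lists and fits but are not reported here one by one. Lists are described by counts and medians and have no test. Alternatives were the 6 libraries alone, a replicate block, pseudocounts of 0.5 and 5, filters, scales, variance models, the other names of 8 libraries, and leaving out libraries.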

Additional observations from a re-analysis of the deposited data

Results flagged for a closer look

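Chp2 was the 1 feature of 17867 whose CORT minus vehicle difference at 16 h departed from the mean of the other 5 times past the threshold. The contrast was 1.03 on the log2 scale (adjusted p = 0.0439, limma), with CORT above vehicle in all 3 libraries at 16 h and group means in the other order at 4, 8 and 24 h. It was still past the threshold without vehicle 16 h replicate 3 (adjusted p = 0.0148, limma) and was not when any of the other 5 libraries at 16 h was left out (adjusted p of 0.0749 to 0.330, limma).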

How the results depend on the processing

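As reported, 2 features were called at 16 h (0 higher, 2 lower), 1 in the test against the other times, and 10 replication and 7 mitosis genes were lower at an unadjusted p under 0.05. Both pseudocounts, median-ratio scaling and an intensity trend left these counts within 1.5 times. The replicate block gave 2 called features (Dtl adjusted p = 0.0212, Pole 0.0382, limma), and it moved no other count by over 1.5 times. With it, 901 features had an unadjusted limma p under 0.05 against 723 as reported, and 871 against 746 in the test against the other times. Deviations of same-numbered libraries correlated at 0.022, 0.040 and -0.101, and 0 of 3 CORT libraries correlated best with their own number. With 3 libraries per group at 1 time, these values cannot show or exclude a pairing by number. With the 6 libraries alone 1 feature was called, 1 higher and 0 lower (RP23-62O7.9, 1.98, adjusted p = 0.0302, limma). The test against the other times called 0 with no filter (1213 at an unadjusted p under 0.05) and 0 on separate scales (708). Library weights gave 31 calls, 9 higher and 22 lower, 9 in the test against other times and 14 mitosis genes. Under the other names of 8 libraries there were 0 calls, 0 lower and 0 against other times (451 unadjusted in each), with 3 replication and 2 mitosis genes. Without those 8 there were 0, 0 and 0 (792 and 972 unadjusted), with 6 and 2. By an unadjusted p under 0.05 and a 2-fold change there were 263, of which 115 higher and 148 lower, and 281 against the other times. Leaving out 1 library or 1 replicate number gave 0 to 3 calls, 0 higher and 0 to 3 lower, 0 to 1 against other times, 6 to 11 replication genes and 1 to 12 mitosis genes. Without CORT replicate 2, vehicle replicate 2, replicate 1 or replicate 2 no feature was called (606, 968, 658 and 710 unadjusted); without CORT replicate 3 the calls were Dtl and Gm16998, and without replicate 3 the call was Arhgef39 (-1.60, adjusted p = 0.0266, limma). Without CORT replicate 2 the call against other times was Apoe (0.86, adjusted p = 0.0395, limma). Dtl was called in 13 and Pole in 11 of 21 alternatives. The 16 h differences that changed sign under the other names were Chp2 -0.0021, Cry2 0.055, Per2 0.47, Pax5 0.17, Ciart 0.36, Cebpd 0.45, Cry1 0.038 and Bhlhe41 0.0082. The causes were not tested. Few reads behind low values limit genes such as Dtl most, and 32099 to 32934 features had no read in a library.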

Other observations

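Receptors of the bladder's nerve supply had wide library spread at 16 h. Of 10 muscarinic and adrenergic receptors 9 were tested, with a median difference of -0.57 and none called. Adra1d, an alpha-1 adrenergic receptor of smooth muscle, was at 3.5, 0.944 and 10.9 in CORT and 22, 23.2 and 12.9 in vehicle, without overlap. Chrm2, the most abundant muscarinic receptor of the detrusor, was at 585, 563 and 849.9 in CORT and 2436, 1255.5 and 298 in vehicle, and Chrm3, which drives contraction, at 309, 152 and 236 against 828, 482 and 173. For both, vehicle replicate 1 was the highest library and vehicle replicate 3 lay under at least 2 of the CORT libraries.

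Ccl2, the chemokine that draws monocytes, was at 0.694, 3.19 and 5.42 in CORT and 22.1, 27.2 and 15.1 in vehicle, without overlap and without a call (adjusted p = 0.999, limma). P2rx3, the ATP receptor of bladder sensory nerves, was at 5.81, 3.89 and 4.89 in CORT and 0, 0 and 2.5 in vehicle, on few reads. These genes were picked after their values were seen.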
